A study of Saccharomyces cerevisiae with 22 samples.

Results

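The genes described here encode the 2 DNA-binding factors that start RNA polymerase I at the ribosomal DNA (rDNA) of budding yeast. They are RRN5 (YLR141W), RRN9 (YMR270C), RRN10 (YBL025W) and UAF30 (YOR295W) of the upstream activating factor (UAF), and RRN6 (YBL014C), RRN7 (YJL025W) and RRN11 (YML043C) of core factor. The 7 genes were taken by identifier, with no use of measured values, from 5823 genes listed in the polyA tables and 18222 features listed in the total RNA tables, and all 7 are present in both. Each is set against the number of rDNA repeats of its strain and against SIR2 (YDL042C), the gene of the histone deacetylase that silences rDNA chromatin.

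RNA came from cultures of Saccharomyces cerevisiae strains that share the genotype MATa his3d1 lyp1d0 can1d::STE2pr-spHIS5 and differ in array length. A pair of strains, with 104 and 166 repeats, had polyA-selected libraries labelled low in polyA recovery. Another 10 strains, with 72, 84, 118, 129, 147, 156, 197, 208, 224 and 237 repeats, had polyA libraries of normal recovery and also total RNA libraries made without selection. Every array length is 1 strain with 1 library per assay, so p-values set a slope or correlation against the scatter between strains, whatever its source. The names form 4 strain series, and 3 of the 4 longest arrays (197, 208 and 224 repeats) belong to the series CGY28.

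PolyA values are TPM, a transcript abundance that the authors scaled for transcript length and to a sum of 1000000 per library, so they keep no depth. Total RNA values are read counts divided by a size factor, and the recovered reads number 6495626 to 7934346 per library, of which 377986 to 465645 lie outside the rDNA. Markers of MATa cells were high in the normal-recovery polyA libraries, with a median of 417 TPM for the pheromone receptor STE2, and the 3 MATalpha markers summed to 3.61 to 5.75 TPM. LYP1 and CAN1, deleted in the genotype, were listed at 0 TPM, although CAN1 had a median of 30.1 normalised counts in total RNA. HIS3, whose his3d1 allele is known as a partial deletion, had a median of 90.8 TPM and of 24.8 normalised counts, so reads were assigned to it in both assays. The polyA library of the 208-repeat strain stood apart, with the lowest value of 46.6% of all genes tested. Slopes of members on array length that turn on it are given with and without it. In bulk RNA, a change in the number of cells that express a gene and in RNA per cell cannot be told apart.

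UAF binds the upstream element of the rDNA promoter, where it contains histones H3 and H4 and contacts the TATA-binding protein. Core factor binds the core element next to the start site and receives RNA polymerase I together with the initiation factor Rrn3. In yeast, UAF also keeps RNA polymerase II from transcribing the rDNA, and it has been reported to bind at SIR2 and repress it when rDNA copies are few.

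The promoter that both factors bind is shown first because it is the element whose copy number differs between the strains. It is read from the RefSeq copy of the S288C genome, build R64, at chrXII:458383-458682 on the minus strand. The stretch holds the 250 bases before and, in capitals, the first 50 bases of RDN37-1, the first annotated 35S rRNA gene.
RDN37-1 promoter: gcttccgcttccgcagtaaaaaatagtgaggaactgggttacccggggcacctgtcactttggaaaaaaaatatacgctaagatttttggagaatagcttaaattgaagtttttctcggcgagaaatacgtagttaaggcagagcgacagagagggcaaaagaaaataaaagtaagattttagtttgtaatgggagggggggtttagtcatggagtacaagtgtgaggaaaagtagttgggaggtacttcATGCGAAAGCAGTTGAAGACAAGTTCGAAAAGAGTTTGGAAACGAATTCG

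RRN5 lies at chrXII:423683-424774 on the plus strand, 26801 bases from the nearer end of RDN37-1, and is the one member on the chromosome that carries the array. RRN9 (chrXIII:805326-806423, minus strand) and RRN11 (chrXIII:190244-191767, minus strand) share chromosome XIII. RRN10 (chrII:171481-171918, plus strand) and RRN6 (chrII:199064-201748, minus strand) share chromosome II. UAF30 lies at chrXV:869208-869894 on the plus strand, and RRN7 at chrX:393967-395511 on the plus strand. All 7 have a coding sequence of 1 exon, from 438 bases for RRN10 to 2685 bases for RRN6, and none overlaps another annotated gene.

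The windows from 250 bases before to 50 bases after each start codon were searched on both strands for 3 motifs. GATGAG, the core of the PAC element found before many genes of rRNA synthesis and ribosome assembly, occurred in 5 of 7 member windows. It occurred in 1223 of 6020 windows of the same length, or 20.3%. AAAAATTT, the RRPE element often found with PAC, was in no member window and in 14.1% of all windows. TTACCCG, bound by the factor Reb1, was in no member window and in 7.06% of all. The windows of RRN5 and RRN7 held none of the 3. These are matches of letters in 7 chosen windows, with no test and no statement about binding.
The stretches that hold a PAC match are printed for comparison, with the match in capitals and CTCATC being its reverse complement.
RRN9, chrXIII:806407-806436, strand minus: acgtggggttttGATGAGtgatcttgacga
RRN10, chrII:171251-171280, strand plus: gctacgtagactGATGAGgaattctttttt
UAF30, chrXV:869121-869150, strand plus: gcagtagtccaaGATGAGatcagaataaga
RRN6, chrII:201811-201840, strand minus: ttaagaaaccgaGATGAGctttcatattag
RRN11, chrXIII:191934-191963, strand minus: taaacatCTCATCTCATCTCATCtcagatg
SIR2, chrIV:378450-378479, strand minus: aaccatttttccCTCATCggcacattaaag
In RRN11 3 reverse matches overlap in 1 tandem run that begins at base -189, counted back from the start codon. In RRN9 the match starts at base -1 and includes the start codon, so it is largely coding sequence. Those of RRN10, UAF30 and RRN6 start at bases -218, -75 and -80, and the reverse match of SIR2 starts at base -22.

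In polyA RNA the members are lowly to moderately expressed and fall into 2 levels. In the 10 normal-recovery strains RRN9 averaged 23.9 ± 3.07 TPM and RRN10 averaged 23.6 ± 4.04 TPM (SD, n = 10 each). The other members followed at 13.8 ± 0.971 TPM for RRN7, 12.3 ± 1.08 TPM for RRN5, 12.2 ± 1.80 TPM for UAF30, 11.8 ± 1.82 TPM for RRN11 and 11.2 ± 1.22 TPM for RRN6 (SD, n = 10 each). These means sit between the 25.6 and the 50.6 percentile of the 5542 genes tested, which average 1 TPM or more. RRN10 stood above RRN7 in 10 of 10 strains, by 9.78 ± 4.08 TPM (SD of the difference), which is the one step in the order of levels larger than 2 of its SDs. RRN7 stood above RRN5 in 9 of 10 strains, by 1.46 ± 1.39 TPM. The other neighbours lay within the spread between strains: RRN9 exceeded RRN10 in 5 of 10 strains, RRN5 exceeded UAF30 in 2, UAF30 exceeded RRN11 in 6, and RRN11 exceeded RRN6 in 7. Within UAF, RRN9 and RRN10 lay above the whole range of RRN5 and UAF30 in these strains.

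RRN5, the UAF subunit with a SANT domain, had 15.8 and 16.0 TPM in the low-recovery strains with 104 and 166 repeats. In the normal-recovery strains it ran from 11.1 TPM at 224 repeats to 14.6 TPM at 208 repeats, with a median of 12.4 TPM. Both low-recovery values are above all 10 others.

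RRN9, the subunit that contacts the TATA-binding protein, had 25.01 and 21.17 TPM in the low-recovery strains with 104 and 166 repeats. With normal recovery the values ran from 16.6 TPM at 208 repeats to 26.9 TPM at 237 repeats, with a median of 24.24 TPM. The 208-repeat strain is low and the other 9 lie between 21.0 and 26.9 TPM.

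RRN10, a small UAF subunit, had 27.1 and 21.7 TPM in the low-recovery strains with 104 and 166 repeats. Its normal-recovery values ran from 14.9 TPM at 208 repeats to 28.9 TPM at 129 repeats, with a median of 24.5 TPM. The second lowest value, 19.7 TPM, belonged to the 147-repeat strain, so low and high values occurred at neighbouring array lengths.

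UAF30, the UAF subunit with a SWIB domain, had 12.6 and 10.4 TPM in the low-recovery strains with 104 and 166 repeats. In the strains of normal recovery it ran from 9.02 TPM at 147 repeats to 14.0 TPM at 156 repeats, with a median of 12.8 TPM. The lowest and the highest strain are next to each other in array length, and 9.15 TPM at 208 repeats was the second lowest.

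In core factor, RRN6, its largest subunit by coding length, had 11.2 and 10.8 TPM in the low-recovery strains with 104 and 166 repeats. Its normal-recovery values ran from 8.19 TPM at 208 repeats to 12.4 TPM at 197 repeats, with a median of 11.3 TPM. Apart from the 208-repeat strain it stayed between 10.9 and 12.4 TPM.

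RRN7, the subunit related to the general factor TFIIB, had 11.8 and 14.7 TPM in the low-recovery strains with 104 and 166 repeats. Normal-recovery values ran from 12.3 TPM at 129 repeats to 15.5 TPM at 72 repeats, with a median of 13.9 TPM. It varied least of the 7, with a coefficient of variation (CV, the SD as a share of the mean) of 7.04%, and the 104-repeat low-recovery value is below all 10 normal-recovery values.

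RRN11, the third core factor subunit, had 12.5 and 9.85 TPM in the low-recovery strains with 104 and 166 repeats. Its normal-recovery values ran from 7.68 TPM at 208 repeats to 13.6 TPM at 118 repeats, with a median of 12.3 TPM. The second lowest was 10.1 TPM at 224 repeats, while the strain with the longest array, 237 repeats, had 13.3 TPM.

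SIR2 had 13.2 and 16.0 TPM in the low-recovery strains with 104 and 166 repeats. Across the normal-recovery strains it ran from 9.81 TPM at 84 repeats to 19.8 TPM at 237 repeats, with a median of 16.0 TPM. The 2 shortest arrays had the lowest values, and its CV of 22.8% was above that of any member, of which RRN10 had the highest at 17.2%.

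**Figure D1:**
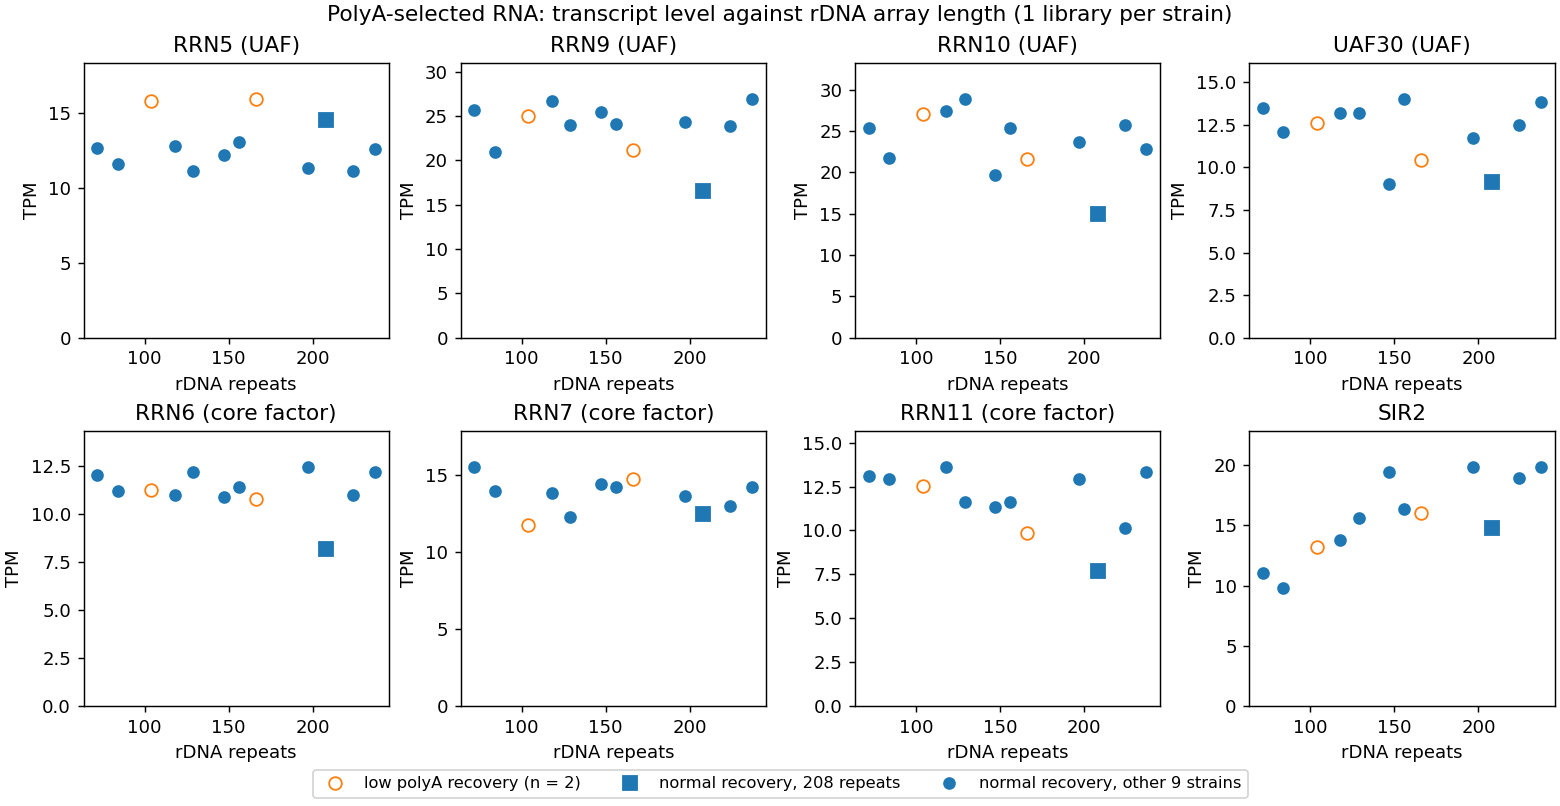
PolyA-selected RNA, TPM of each member and of SIR2 (vertical axes, starting at 0) against the number of rDNA repeats (horizontal axes), 1 point per library. Open circles are the 2 low-recovery strains, squares the 208-repeat strain and filled circles the other 9 normal-recovery strains; SIR2 is lowest at 72 and 84 repeats, while the members' lowest values are mostly at 208 repeats.

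Array length was tested as a linear slope of log2(TPM + 1) per 100 repeats over the 10 normal-recovery strains. None of the 7 members was called at an adjusted p of 0.05, against 0 of 5542 genes tested (0%). At an unadjusted p under 0.05 there were 0 of 7 members, against 312 genes (5.63%). The members' median slope was -0.06, with 1 positive and 6 negative, beside a median of -0.02 over all genes tested, 40.6% of which had a positive slope.

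The UAF slopes were 0.01 ± 0.08 for RRN5, -0.05 ± 0.10 for RRN9, -0.14 ± 0.13 for RRN10 and -0.06 ± 0.11 for UAF30 (SE, n = 10 strains). The core factor slopes were -0.06 ± 0.09 for RRN6, -0.07 ± 0.07 for RRN7 and -0.17 ± 0.11 for RRN11 (SE, n = 10 strains). Each of the 7 confidence intervals includes 0. The lowest p was that of RRN11, with limma p = 0.147 and adjusted p = 0.877. SIR2 had a slope of 0.47 ± 0.10 in the same fit, with limma p = 0.000461 and adjusted p = 0.483.

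Over the 165 repeats between the shortest and the longest array, the fitted change of RRN11 was 0.824-fold on the scale of TPM + 1 (95% confidence interval 0.629 to 1.08). For RRN10 it was 0.855-fold (0.625 to 1.17) and for RRN5 1.02-fold (0.839 to 1.23). The interval of SIR2, 1.71-fold (1.33 to 2.21), lies above the upper bound of all 7 members, the highest of which is that of RRN5. The difference between the SIR2 slope and the members' slopes was not tested.

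A level proportional to array length would have a slope of 1 per doubling of the array on log2(TPM), and slightly less on log2(TPM + 1). Against log2 of the repeat number the members' polyA slopes ran from -0.17 ± 0.11 for RRN11 to 0.01 ± 0.08 for RRN5 (SE). Their highest upper bound was 0.18, and among the members tested in total RNA it was 0.62, for RRN9. The strain with 237 repeats has 3.29 times the repeats of the strain with 72. In polyA RNA, where TPM is relative to all other transcripts, the members' levels did not rise in proportion within these bounds. In total RNA the bound of RRN9 rests in part on the 237-repeat library, which has 3 of its reads. Leaving out 1 strain in turn, its slope per 100 repeats ran from -0.33 to 0.44, highest without that library. A bound per doubling without that library was not computed. RRN10 and UAF30 have no total RNA bound. In polyA RNA SIR2 had 0.49 ± 0.09 (SE) against log2 of the repeat number.

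Several signs rest on the 208-repeat strain. Without it the slopes were -0.03 for RRN5, 0.05 for RRN9, 0.0047 for UAF30 and 0.02 for RRN6, each turned in sign, and none was called. Those of RRN10, RRN11 and RRN7 stayed negative but shrank, from -0.14, -0.17 and -0.07 to -0.03, -0.07 and -0.05. RRN5 also turned, to -0.0066, without the 84-repeat strain. With strain series as a covariate, RRN5 had a slope of -0.01, UAF30 0.15 and RRN6 0.05, also turned.

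**Figure D2:**
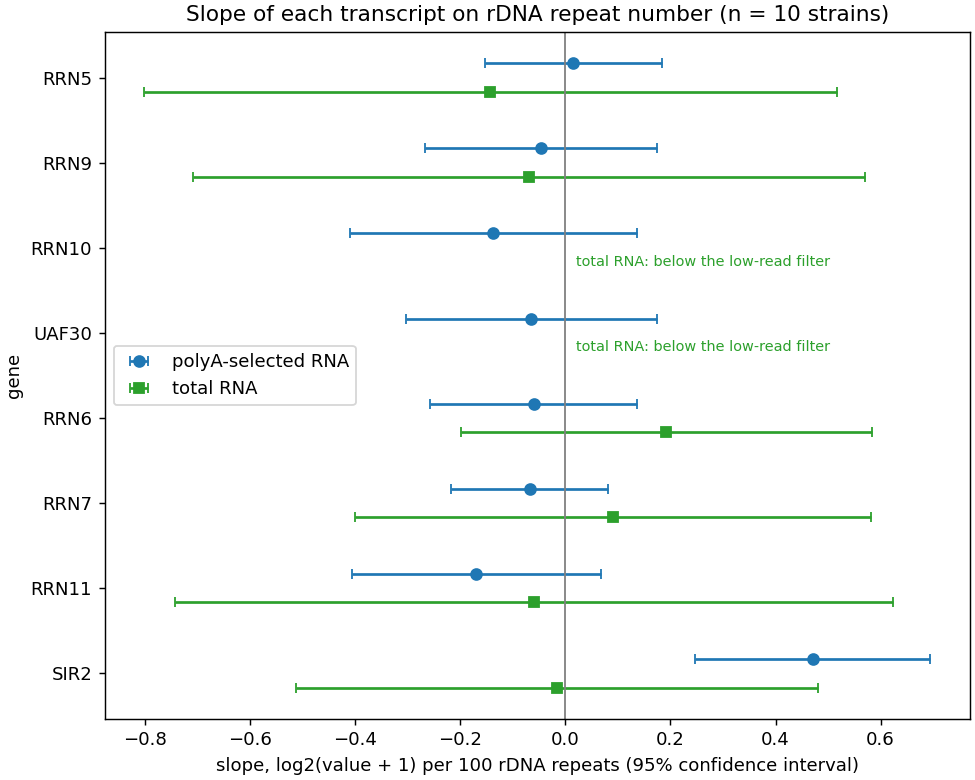
Slope of log2(value + 1) per 100 rDNA repeats (horizontal axis) for each gene (vertical axis), with 95% confidence intervals, in polyA-selected RNA (circles) and total RNA (squares), n = 10 strains each. All member intervals shown include 0 and the polyA interval of SIR2 does not. RRN10 and UAF30 have no total RNA slope here because they did not pass the low-read filter.

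Correlations over strains were computed as well. With repeat number, Pearson's r of the polyA values ran from -0.43 for RRN11 (permutation p = 0.219, adjusted over 5542 genes 0.905) to 0.08 for RRN5 (permutation p = 0.836, adjusted 0.970), n = 10 strains. Spearman's rho was -0.38 for RRN11 (permutation p = 0.278, adjusted 0.917) and -0.08 for RRN5 (permutation p = 0.837, adjusted 1.00). Leaving out the strains with 72 and 237 repeats, r was -0.64 for RRN11 (exact permutation p = 0.0781) and 0.13 for RRN5 (exact permutation p = 0.763). Taken inside the strain series, r was -0.14 for RRN11 and -0.04 for RRN5. In all, 26 relations of members and SIR2 were computed over both assays.

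The second relation is that between the members and SIR2 in the same library. In polyA RNA 0 of 7 members were called on the SIR2 level, against 3 of 5541 genes (0.0541%), which are RDT1 (slope 1.55), RTC3 (-1.07) and HOR7 (-0.75), named after their values were seen. At an unadjusted p under 0.05 there were 0 of 7 members, against 2.74% of genes. The slopes per unit of log2(TPM + 1) of SIR2 were -0.06 ± 0.14 for RRN5, 0.16 ± 0.18 for RRN9, -0.02 ± 0.23 for RRN10 and -0.10 ± 0.19 for UAF30 (SE). For core factor they were 0.05 ± 0.16 for RRN6, -0.07 ± 0.12 for RRN7 and -0.11 ± 0.21 for RRN11 (SE). Both signs occur in each complex, and limma's adjusted p was 1.00 for each member.

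Pearson's r with SIR2 ran from -0.23 for RRN7 (permutation p = 0.519) to 0.28 for RRN9 (permutation p = 0.464), n = 10 strains, with both adjusted values at 1.00. Spearman's rho was 0.03 for RRN7 (permutation p = 0.946) and 0.33 for RRN9 (permutation p = 0.348), with both adjusted values at 0.999. Without the strains with 72 and 84 repeats, where SIR2 is lowest, r was 0.42 for RRN7 (exact permutation p = 0.274) and 0.36 for RRN9 (exact permutation p = 0.436). Taken inside the strain series, r was -0.17 for RRN7 and 0.32 for RRN9. With repeat number as a covariate the slopes of RRN10 (0.51), RRN7 (0.09) and RRN11 (0.38) on SIR2 turned in sign, and none was called. With strain series as a covariate those of RRN10 (0.19), UAF30 (0.08) and RRN11 (0.11) did so.

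The strains with 147 and 208 repeats, chosen after their values were seen, have high and middling SIR2 with low UAF30. SIR2 stood at 19.4 TPM at 147 repeats, close to its highest value, where UAF30 was at its lowest of 9.02 TPM and RRN5 at 12.2 TPM. At 208 repeats SIR2 stood at 14.8 TPM, with UAF30 at 9.15 TPM and RRN5 at its highest.

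**Figure D3:**
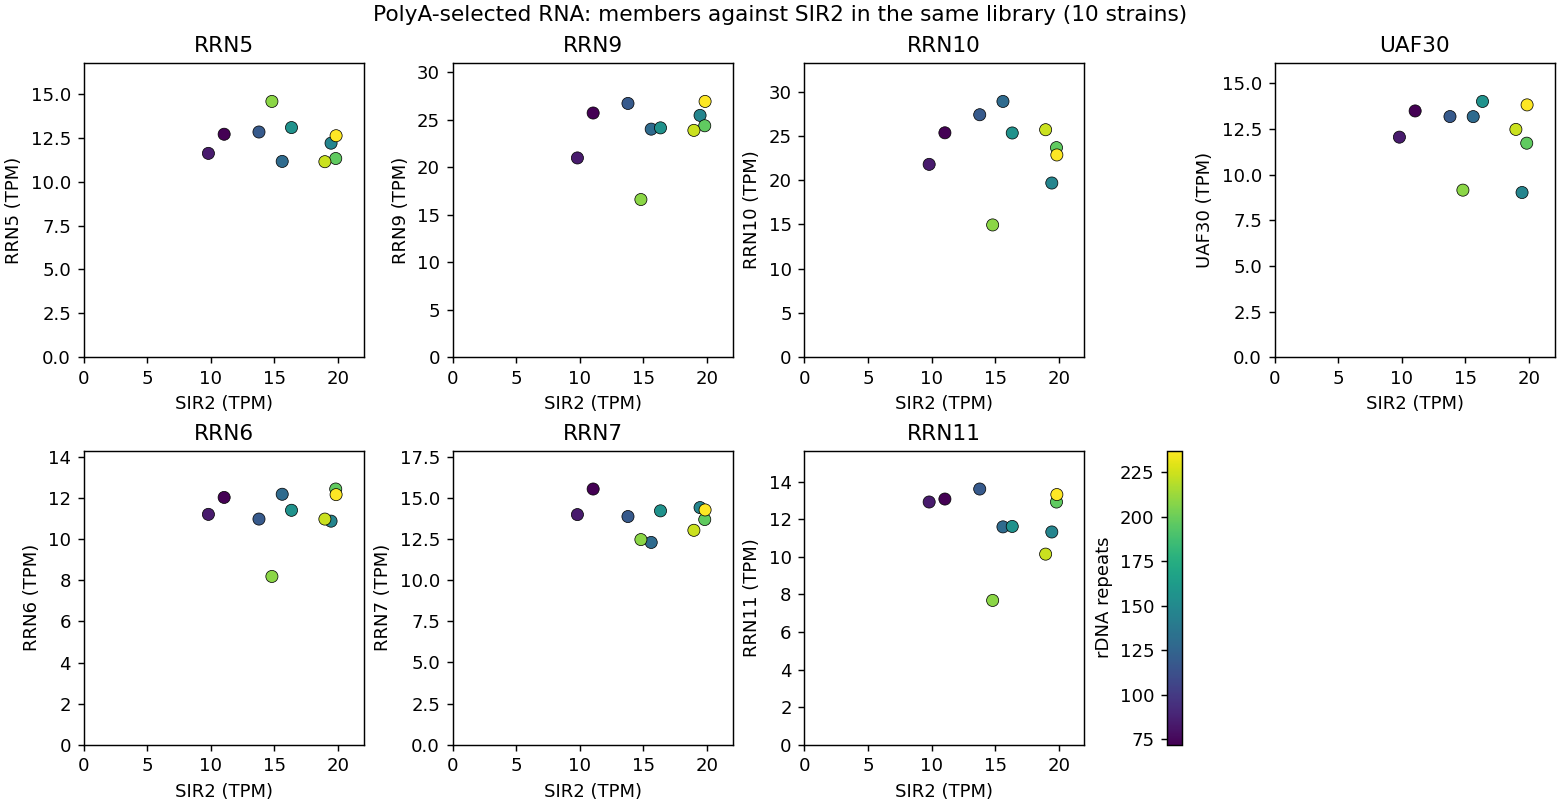
PolyA-selected RNA, TPM of each member (vertical axes) against TPM of SIR2 in the same library (horizontal axes), 10 normal-recovery strains, coloured by rDNA repeats. SIR2 spreads from 9.81 to 19.8 TPM, with a positive slope on array length that was not called (limma adjusted p = 0.483). The members show no called trend across SIR2.

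The members varied together in part. Over the 10 strains the 21 pairs of members had a median Pearson's r of 0.57 (range -0.68 to 0.85), and 16 were positive. The median was 0.15 for the 6 pairs within UAF, of which 3 were positive. It was 0.63 for the 3 pairs within core factor and 0.59 for the 12 pairs between the complexes. These values describe 10 shared libraries and carry no test. Over all pairs of tested genes the median r was 0.15. Without the 208-repeat strain the members' median was 0.26 (range -0.47 to 0.72), and that of all pairs of tested genes was 0.08. The medians were then 0.21 within UAF, 0.39 within core factor and 0.25 between the complexes. The highest pair over 10 strains was RRN6 with RRN11 (0.85), which had 0.39 without that strain. RRN10 with UAF30 had 0.83, and 0.72 without it. RRN5 had negative r to 5 of the other 6 members over 10 strains, namely RRN9 (-0.42), RRN10 (-0.60), UAF30 (-0.27), RRN6 (-0.68) and RRN11 (-0.43). Without the 208-repeat strain RRN5 and RRN9 had r = 0.55 and RRN5 and RRN7 had r = 0.72.

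Summed over subunits, UAF transcripts held 55.3 to 80.1 TPM and core factor transcripts 28.3 to 40.7 TPM in the normal-recovery strains. Both sums were lowest at 208 repeats. Their ratio was 2.27 and 1.96 in the low-recovery strains with 104 and 166 repeats, and 1.74 to 2.14 in the normal-recovery strains. The ratio at 208 repeats, 1.95, lay inside that range, so both sums were low there in like proportion.

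The most alike gene of each member was taken as the one with the highest Pearson's r of log2(TPM + 1) over the 10 normal-recovery strains, among 5523 genes compared. RRN5 was most like MST27 (r = 0.84), a low-abundance transcript of 1.27 TPM on average, and no gene passed r = 0.9 with it. RRN9 was most like TAH1 (0.96), a co-chaperone of Hsp90, and RRN10 was most like TIM12 (0.95), a mitochondrial import factor. UAF30 was most like YMR196W (0.96) and RRN7 was most like MNE1 (0.94), a mitochondrial protein. RRN6 was most like ARP5 (0.98), a subunit of the INO80 remodeller, and RRN11 was most like NSA2 (0.98), an assembly factor of the large ribosomal subunit. Genes with r over 0.9 numbered 223 for RRN6 and 220 for RRN11, and 6 to 38 for RRN9, RRN10, UAF30 and RRN7. Without the 208-repeat strain the 7 values ran from 0.73 for RRN5 to 0.94 for UAF30; all were the highest of many and carry no test.

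The polyA library of the 208-repeat strain was also the least like the others. Its median r with the other libraries was 0.988, against 0.991 to 0.992 for the other 9. Of the 7 members, 4 (RRN9, RRN10, RRN6 and RRN11) were below the range of the other 9 strains there, against 46.5% of all tested genes, so the members' share is near that of all genes. Relative to the median of the other 9 on the log2(TPM + 1) scale, RRN10 stood at -0.72, which is at the 1.82 percentile of all genes, and RRN11 at -0.68, at the 2.60 percentile. RRN9 stood at -0.53, UAF30 at -0.48, RRN6 at -0.43 and RRN7 at -0.15. RRN5 stood at 0.24, at the 94.6 percentile, one of 9.89% of genes above the range of the other 9. This strain is 1 library, so none of these differences has a replicate.

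RRN5 was also above the whole normal-recovery range in both low-recovery libraries. Its differences from the median were 0.33 at 104 repeats and 0.34 at 166 repeats on the log2(TPM + 1) scale, at the 97.3 and 98.3 percentiles of all genes. At 104 repeats 10.4% of genes were above that range and at 166 repeats 4.51%. RRN7 was below the range at 104 repeats (-0.23), where 7.76% of genes were, and the other members lay inside it in both libraries. Low recovery and the strains cannot be told apart here, since each of these strains has a single library.

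**Figure D4:**
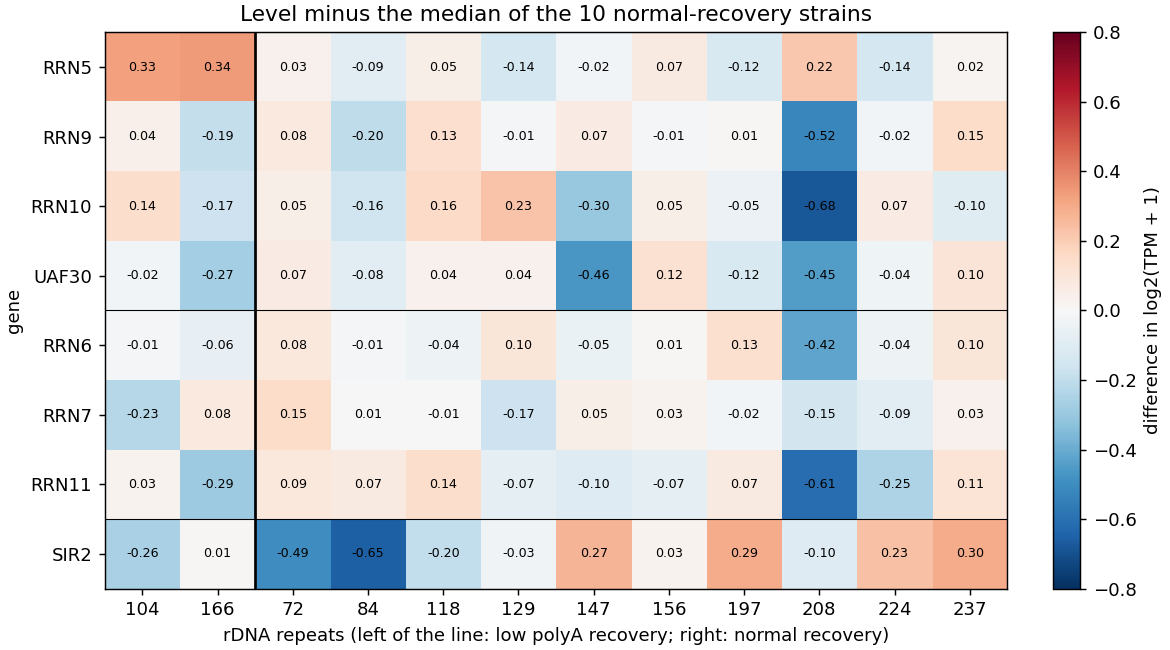
Difference in log2(TPM + 1) between each polyA library and the median of the 10 normal-recovery strains, for each member and SIR2 (rows) and each strain by its rDNA repeats (columns), with the 2 low-recovery libraries left of the line. RRN5 is high in both low-recovery libraries and at 208 repeats, and RRN10 and RRN11 have their lowest cells at 208 repeats (-0.68 and -0.61).

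In total RNA few reads fell on the members. Over the 10 libraries RRN6 had 204 reads, RRN7 had 139, RRN9 had 95, RRN5 had 90, RRN11 had 86, UAF30 had 27 and RRN10 had 15. SIR2 had 140. Per kilobase of coding sequence and per 1000000 reads outside the rDNA, this is 20.8 ± 5.82 for RRN7, 20.3 ± 7.21 for RRN9, 19.0 ± 7.84 for RRN5, 17.7 ± 3.38 for RRN6 and 13.0 ± 5.33 for RRN11 (SD, n = 10). UAF30 had 8.94 ± 10.5 and RRN10 had 7.93 ± 5.68 (SD, n = 10).

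RRN10 lay with RRN9 above the other members in polyA RNA. In total RNA the mean of RRN9 lay between those of RRN7 and RRN5. RRN10 and UAF30, which differ by less than either SD, had the lowest means there. Coding length moves with this: the total rate relative to TPM had a median of 0.592 over 1452 genes with a coding length under 750 bases and of 1.17 over 4077 longer genes. The ratio was 0.336 for RRN10 (438 bases) and 0.732 for UAF30 (687 bases), against 0.852 to 1.57 for the other 5. The part of length in these levels was not tested.

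RRN10 had 0 reads in the libraries with 118 and 237 repeats and at most 3 in any other. UAF30 had 0 reads at 129, 147 and 224 repeats and 8 reads at 118 and 237 repeats. For 0 reads the exact 95% Poisson interval reaches 3.69 reads, and for the 8 reads of UAF30 it begins at 3.45. Neither gene passed the low-read filter, and neither was tested between strains. Of the other members, RRN6 ranged from 15 reads at 84 and 147 repeats to 27 at 72 repeats, and RRN7 from 9 at 197 repeats to 22 at 208 repeats. RRN9 ranged from 3 reads at 237 repeats to 16 at 224 repeats, the 2 longest arrays. RRN5 ranged from 4 at 197 and 224 repeats to 16 at 147 repeats, and RRN11 from 3 at 156 repeats to 14 at 84 repeats.

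For the 5 members tested, the spread over strains was 0.86 to 1.22 times what counting alone gives. The CV over strains was 19.1% for RRN6, where counting error alone gives 22.1%, and 31.1% for RRN7, where it gives 26.8%. For RRN5 it was 40.5% beside 33.3%, for RRN9 36.4% beside 32.4% and for RRN11 39.8% beside 34.1%. UAF30, with 27 reads in all, had 117% beside 60.9%, and RRN10 had 70.5% beside 81.6%.

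**Figure D5:**
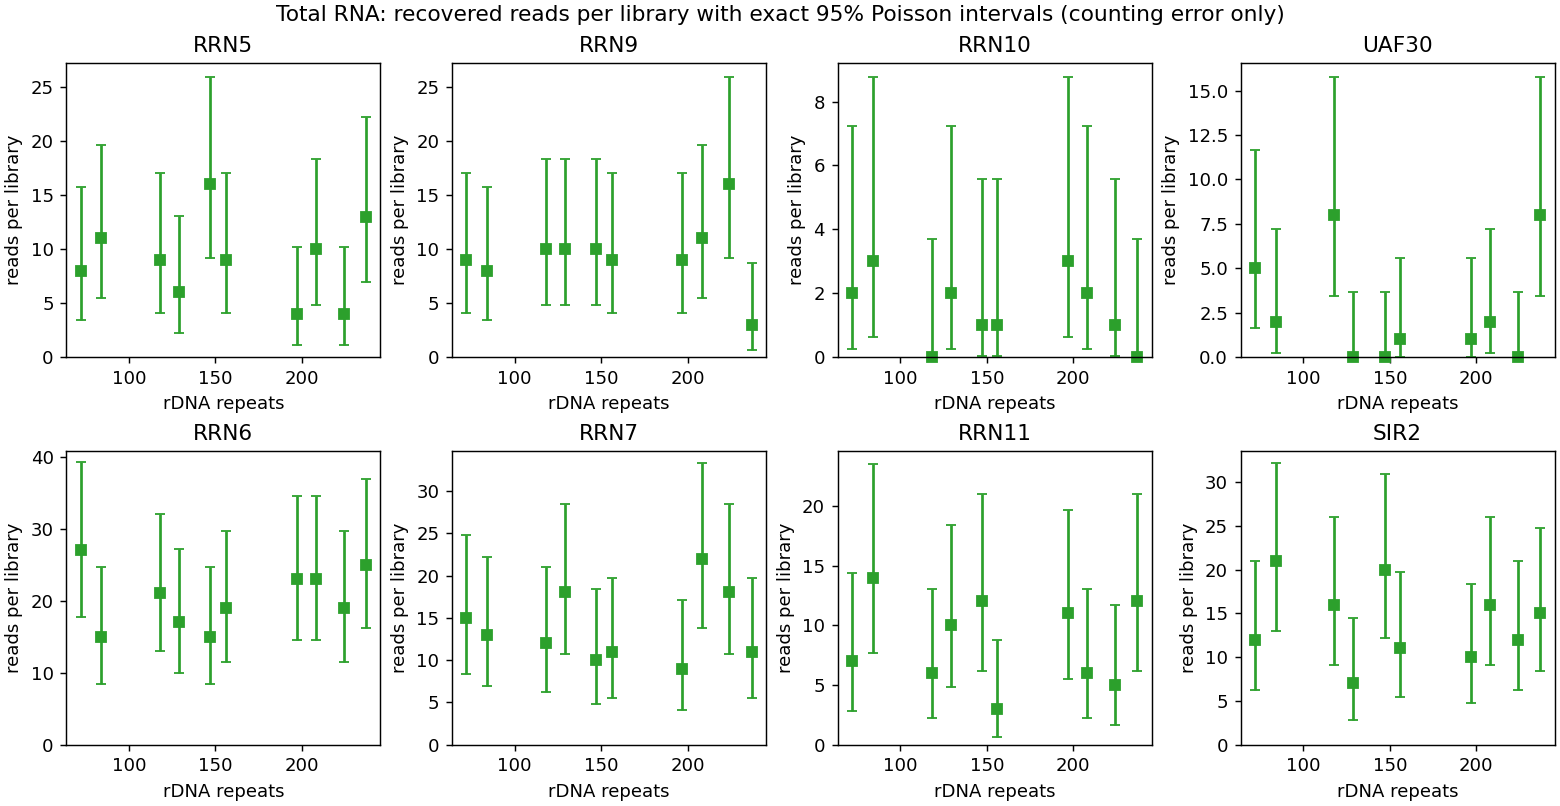
Total RNA, recovered reads per library (vertical axes) against rDNA repeats (horizontal axes) for each member and SIR2, with exact 95% Poisson intervals that cover counting error only. The intervals of most libraries overlap within each gene, and RRN10 never exceeds 3 reads.

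Of the 7 members 5 passed the filter and were tested in total RNA, and 0 of these 5 were called on repeat number, against 1 of 4019 features (0.0249%), the reading frame YDR154C (slope 0.72, named after its value was seen). At an unadjusted p under 0.05 there were 0 of 5, against 4.68% of features. The slopes per 100 repeats on log2(value + 1) were -0.14 ± 0.32 for RRN5, -0.07 ± 0.31 for RRN9, 0.19 ± 0.19 for RRN6, 0.09 ± 0.24 for RRN7 and -0.06 ± 0.34 for RRN11 (SE). SIR2 had -0.02 ± 0.24. The lowest adjusted p among the members was 0.987 with limma. The intervals are wide: that of RRN5 runs from -0.80 to 0.52, so slopes as large as that of SIR2 in polyA RNA were not detectable for it at this depth.

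In total RNA, leaving out the 2 strains farthest from the median of repeat number or of SIR2 brought 2 relations that were not under an unadjusted p of 0.05 under it. RRN9 and repeat number had r = -0.07 over 10 strains (permutation p = 0.870, adjusted 0.995) and rho = 0.26 (permutation p = 0.470, adjusted 0.993), but r = 0.75 without the strains with 72 and 237 repeats (exact permutation p = 0.0195). The 237-repeat strain has 3 reads of RRN9. RRN6 and SIR2 had r = -0.38 (permutation p = 0.277, adjusted 1.00) and rho = -0.50 (permutation p = 0.145, adjusted 1.00), and r = -0.72 without the strains with 129 and 147 repeats (exact permutation p = 0.0253). Taken inside the strain series over all 10 strains, r was -0.55 for RRN9 and repeat number and -0.05 for RRN6 and SIR2. These 2 values include the strains left out before, so they cannot show whether the relations without those strains hold inside the series.

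On the SIR2 level in total RNA 0 of 5 members were called, against 0 of 4018 features (0%) with limma. At an unadjusted p under 0.05 there was 1 of 5, RRN5, against 4.11% of features. RRN5 had 16 reads and SIR2 20 reads at 147 repeats, and RRN5 had 6 and SIR2 7 at 129 repeats. The slope was 0.90 ± 0.44 (SE) per unit of log2(value + 1) of SIR2, with limma p = 0.0463 and adjusted p = 0.9997. Pearson's r was 0.67 (permutation p = 0.0357, adjusted 1.00) and rho was 0.67 (permutation p = 0.0396, adjusted 1.00), n = 10 strains. Without the strains with 129 and 147 repeats r was 0.60 (exact permutation p = 0.123), and within strain series over all 10 strains it was 0.75. In polyA RNA of the same strains r was -0.16, and the difference between the assays in this relation was not tested.

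The difference in slope between the assays, polyA minus total RNA, was tested for the 5 members measured in both. None was called, against 0 of 3662 genes (0%), and 0 of 5 were under an unadjusted p of 0.05, against 3.28% of genes. The largest difference was that of RRN6, at -0.25 ± 0.20 (SE) per 100 repeats, with limma p = 0.224 and adjusted p = 0.999. SIR2 had 0.49 ± 0.26 (SE), with limma p = 0.0773 and adjusted p = 0.999. These values come from the fit that does not pair the 2 libraries of a strain. The fit with strain as a replicate block, which pairs them, called 0 genes too. In it 0 of 5 members were under an unadjusted p of 0.05, against 4.78% of genes, and RRN6 had limma p = 0.232.

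Around the 2 factors, 17 genes of the polymerase I machinery and of rDNA chromatin were followed, and all 17 were tested in both assays. On repeat number 0 of 17 were called in polyA RNA and 0 of 17 in total RNA. In polyA RNA 4 had positive and 13 negative slopes, with a median of -0.05, and 3 were under an unadjusted p of 0.05, all 3 negative, against 3.68% of all genes. In total RNA 7 were positive and 10 negative, and 0 of 17 were under an unadjusted p of 0.05, against 4.68% of all features.

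The 3 were histone genes, whose products H3 and H4 are part of UAF and of all chromatin. The slopes per 100 repeats were -0.11 ± 0.05 for HHT2 (limma p = 0.0261), -0.17 ± 0.07 for HHT1 (limma p = 0.0340), -0.14 ± 0.06 for HHF1 (limma p = 0.0377) and -0.12 ± 0.06 for HHF2 (limma p = 0.0610), with SE in each case. HHT1 and HHT2, and HHF1 and HHF2, encode the same protein from similar coding sequences, so some reads may be split between them. Adjusted over all genes limma's p was 0.867 for all 4. In total RNA the 4 had slopes of -0.04 ± 0.09 for HHT2, 0.02 ± 0.11 for HHT1, -0.02 ± 0.13 for HHF1 and -0.13 ± 0.14 for HHF2 (SE).

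HMO1, a high-mobility-group protein of rDNA chromatin, had the lowest p among positive slopes at 0.10 ± 0.06 (SE, limma p = 0.136), followed by RPA135, the second largest polymerase I subunit, at 0.06 ± 0.06 (SE, limma p = 0.293). RRN3, which carries the polymerase to core factor, had -0.00 ± 0.09, and SPT15, the TATA-binding protein, had -0.02 ± 0.08 (SE). In total RNA the lowest p were those of RPA34 at -0.38 ± 0.19 (SE, limma p = 0.0536) and RPA14 at 0.34 ± 0.17 (SE, limma p = 0.0588), both subunits of polymerase I. CDC14, a phosphatase of the nucleolar RENT complex, had -0.16 ± 0.15 and HMO1 had 0.17 ± 0.14 (SE) there.

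On the SIR2 level in polyA RNA 0 of 17 were called, and 1 was under an unadjusted p of 0.05, against 2.74% of all genes. That was HMO1, with a slope of 0.32 ± 0.09 (SE, limma p = 0.00279, adjusted p = 0.616). CDC14 followed among the positive slopes at 0.09 ± 0.11 (SE, limma p = 0.389), and the lowest p among negative ones were those of HHT2 at -0.10 ± 0.09 (SE, limma p = 0.273) and RPA14 at -0.09 ± 0.08 (SE, limma p = 0.302). The other histone genes had -0.15 ± 0.15 for HHT1, -0.10 ± 0.13 for HHF1 and -0.11 ± 0.11 for HHF2 (SE). RRN3 had 0.07 ± 0.16 and SPT15 had 0.11 ± 0.13 (SE).

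On the SIR2 level in total RNA 0 of 17 were under an unadjusted p of 0.05, against 4.11% of all features. NET1, the nucleolar anchor of the RENT complex, had -0.26 ± 0.14 (SE, limma p = 0.0669), RPA34 had -0.26 ± 0.28 (SE), HMO1 had 0.19 ± 0.20 (SE) and HHF2 had 0.18 ± 0.19 (SE). Between the assays, polyA minus total RNA, 1 of 17 slopes on repeat number differed at an unadjusted p under 0.05, against 3.28% of all genes. It was that of RPA14 at -0.38 ± 0.16 (SE, limma p = 0.0278, adjusted p = 0.999). With strain as a replicate block, which pairs both libraries of a strain, 2 of 17 did, against 4.78% of all genes. These were RPA14 (limma p = 0.0194, adjusted p = 0.998) and HHT1 at -0.19 ± 0.08 (SE, limma p = 0.0224, adjusted p = 0.998), and HHT1 had limma p = 0.134 without the block.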

How the data were processed

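The 22 libraries come from 12 strains. The submitters' processing notes name Salmon 0.8.1, bcl2fastq, DESeq2 and the sacCer3 build (R64), without settings. The authors deposited TPM for polyA RNA and, for total RNA, a normalised signal. The signal values of each library are whole multiples (100% within 0.001) of 1 step, so reads were recovered. The 42 rDNA features were left out of total RNA tests. Per the labels, the kit marks strand; the counting setting for strand is not given.

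Slopes were fitted with limma 3.58.1 in R 4.3.3 on log2(value + 1), which understates changes of low genes. PolyA genes needed a mean of at least 1 TPM, and total RNA features had to pass edgeR's expression filter on the reads. Tests were two-sided with Benjamini-Hochberg adjustment over all features tested and a threshold of 0.05. Correlations used 100000 permutations (exact over 8 strains) in numpy 2.4.6 under Python 3.11.15, with ranks from scipy 1.17.1. Alternatives used edgeR 4.0.16 and DESeq2 1.42.0 on the recovered reads, other pseudocounts, filters, scalings and covariates, and leaving out each strain. The fits were tested on simulated data.

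The 2 libraries of a strain share that strain and are paired: their deviations from the assay means correlated between assays at 0.141 to 0.517. The members were taken by identifier with no use of measured values, but they, the lists and the tests were chosen with earlier results of these data known. Named are the 7 members, SIR2, the 17 listed genes by count with their lowest p in each direction and the partners RRN3, SPT15 and H3 and H4 genes, and the gene most like each member. Intervals of reads cover counting error only. Symbols and coordinates come from the RefSeq R64 annotation.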

Additional observations from a re-analysis of the deposited data

Results flagged for a closer look

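RRN6 in polyA RNA had 8.19 TPM in the 208-repeat strain, a gap to the next lowest strain that is large for the range of the 10 normal-recovery strains. Of 16 groups of 10 values examined this way (members and SIR2 in both assays), 1 stood out, and chance gives about 1 in 20. In total RNA the same strain had 23 reads of RRN6, against 15 to 27 in the other 9. The 208-repeat polyA library also had the lowest value of 46.6% of tested genes, and its part in the RRN6 value was not tested.

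The total RNA tables list a feature antisense to RRN5, which no comparison above uses. It held 143 reads over the 10 libraries, 7 to 20 in each, beside 90 reads of RRN5 itself. Its slope per 100 repeats was 0.33 ± 0.24 (SE, limma p = 0.188, adjusted p = 0.987), and RRN5 had -0.14 ± 0.32. The feature antisense to UAF30 had 1 read in all. How reads were assigned to strand is not given in the sources used here, so reads of RRN5 and of its antisense feature may not be fully told apart.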

How the results depend on the processing

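No member passed the threshold under any alternative: of 399 member values 0 had an adjusted p under 0.05, and the lowest was 0.477. Counts over all genes moved as follows. On repeat number in total RNA 4 features were called with no filter, 3 with edgeR, 2 with DESeq2 and 0 with strain series as a covariate. At an unadjusted p under 0.05 edgeR had 186 and DESeq2 had 94. On SIR2 in polyA RNA 0 genes were called with repeat number and 0 with strain series as a covariate. Leaving out 1 strain in turn gave 0 to 1 polyA genes called on repeat number (1 without 197 or 237), 0 to 2 total RNA features (0 without 72, and 2 without 84, 147 or 237), 0 to 3 polyA genes on SIR2 (0 without 72, 147, 197 or 237, and 1 without 84) and 0 total RNA features on SIR2.

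Signs of small slopes turned. On repeat number in polyA RNA these were RRN5 (-0.011), UAF30 (0.15) and RRN6 (0.050) with strain series, and RRN5 (-0.024) over all 12 polyA libraries. In total RNA they were RRN9 (0.11 with edgeR, 0.12 with DESeq2), RRN5 (0.20 with strain series) and RRN11 (0.024 with strain series). On SIR2 in polyA RNA they were RRN10 (0.51), RRN7 (0.087) and RRN11 (0.38) with repeat number, and RRN10 (0.19), UAF30 (0.075) and RRN11 (0.11) with strain series. On SIR2 in total RNA with strain series they were RRN9 (0.61), RRN7 (0.14) and RRN11 (-1.21). The cause was not tested.

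Leaving out 1 strain in turn, slopes on repeat number in polyA RNA ran from -0.031 to 0.056 for RRN5, -0.13 to 0.051 for RRN9, -0.15 to 0.0047 for UAF30 and -0.12 to 0.018 for RRN6. In total RNA they ran from -0.38 to 0.074 for RRN5, -0.33 to 0.44 for RRN9, -0.039 to 0.25 for RRN7, -0.26 to 0.14 for RRN11 and -0.14 to 0.14 for SIR2. On SIR2 in polyA RNA they ran from -0.13 to 0.064 for RRN10, -0.19 to 0.028 for UAF30 and -0.097 to 0.023 for RRN7, and in total RNA from -0.086 to 0.70 for RRN11.

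The replicate block, with strain as the pairing of both assays, called 0 genes for the slope difference, as did the fit without it. TMM factors moved the median polyA slope of all genes, -0.02 as deposited, to -0.00026. Depth limits total RNA, where the tested members had 3 to 27 reads per library.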
